A study of Homo sapiens with 9 samples.

Results

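The genes described here are 10 that build or mark epithelial cell contacts, picked by their symbols from the 26475 rows of the count table: the claudins CLDN1, CLDN4, CLDN7, CLDN11 and CLDN12, and EPCAM, CDH1, OCLN, TJP1 and TRIM29. They were chosen with earlier results of these data known. Their fold changes and adjusted p-values therefore describe them and are not independent evidence that junction genes respond. RNA was sequenced from MDA-MB-231, an established human breast adenocarcinoma line that lacks the hormone receptors and ERBB2 amplification. There were 3 groups of 3 libraries. ACSL4 knockdown cells stably carried pLKO.1-shACSL4, a lentiviral vector with a short hairpin RNA against the acyl-CoA synthetase ACSL4. The second group consisted of empty-vector cells treated with the ACSL4 inhibitor PRGL493. Its dose, exposure time and vehicle are not stated here. Control cells carried the empty pLKO.1 vector and no treatment. All groups thus share the vector backbone, and the knockdown rests on a single named hairpin construct. Whether the transduced cells were a pool or a clone is not stated here. The 3 libraries of a group are described as different batches of cells, so the p-values cover the spread between batches.

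Tight junctions seal the space between neighbouring epithelial cells. Claudins are small membrane-spanning proteins that form the sealing strands, occludin (OCLN) lies within the strands, and ZO-1 (TJP1) ties them to actin from the inside. Adherens junctions hold cells together through E-cadherin (CDH1). EPCAM is an epithelial adhesion molecule that binds claudin-7 and protects it from breakdown. TRIM29 is a tripartite-motif protein found in basal and squamous epithelia. Breast cancers of the claudin-low type, the class into which MDA-MB-231 is usually put, have little CLDN3, CLDN4, CLDN7 and CDH1. SNAIL, encoded by SNAI1, represses CDH1 and several claudins through E-boxes in their promoters, and the title of the series ties ACSL4 to SNAIL.

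The libraries held between 28673940 and 43027217 counts, and levels are given as CPM, counts scaled to a common library size with TMM factors, which offset differences in RNA composition. ACSL4 averaged 27.0 ± 2.95 CPM in knockdown cells, 348 ± 13.7 CPM with PRGL493 and 349 ± 14.8 CPM in control cells (SD, n = 3 each). SNAI1 averaged 2.18 CPM in knockdown cells, 2.51 CPM with PRGL493 and 10.7 CPM in control cells. The mesenchymal marker VIM ran from 1611 to 1811 CPM over the 9 libraries, while ESR1 and PGR had at most 1 and 6 counts in any library. Among the 5 markers listed as present, KRT8 was called lower in knockdown cells (log2 fold change -0.24, SE 0.06). CD44 was called higher with PRGL493 (0.21, SE 0.04). VIM, ZEB1 and KRT18 were not called against control in either treatment. CDH1 did not exceed 2.04 CPM, but CLDN4 and CLDN7 were not low in these cells. CLDN3 averaged 9.57 CPM in knockdown cells, 7.22 CPM with PRGL493 and 8.19 CPM in control cells. Of the 5 markers listed as low, ERBB2 was the highest, with a mean of 80.6 CPM over the 9 libraries. ERBB2 was called higher with PRGL493 (0.35, SE 0.07) and was not called in knockdown cells (-0.10, SE 0.07). Of 4 immune markers CD68 passed the filter, and PTPRC and CD3E had at most 3 counts in a library. CD68 was called higher in knockdown cells (0.20, SE 0.06) and lower with PRGL493 (-0.42, SE 0.06). Of 4 endothelial markers KDR and PECAM1 passed, and CDH5 and CLDN5 had at most 7 counts. KDR was called lower in knockdown cells (-0.31, SE 0.10) and with PRGL493 (-0.84, SE 0.10), and PECAM1 lower in knockdown cells (-0.58, SE 0.20). The 6 luminal markers summed to between 387 and 456 CPM in knockdown libraries, 579 and 592 CPM in PRGL493 libraries and 425 and 471 CPM in control libraries. KRT19, the highest of the 6 with a mean of 435 CPM over the 9 libraries, made up most of these sums. Of the 3 that passed, MUC1 (0.81, SE 0.12) and GATA3 (0.35, SE 0.08) were called higher in knockdown cells and KRT19 lower (-0.20, SE 0.07). All 3 were called higher with PRGL493. Of all genes tested, 30.1% were called in knockdown cells and 41.8% with PRGL493. The part of these markers in the junction gene results was not tested. Knockdown replicate 2 stood apart by gene length. Relative to each gene's average across the 9 libraries, its log2 level was higher by 0.15 (median) for genes with exons of up to 3204 bp in all, and was at -0.14 for genes above 7440 bp. Elsewhere these medians stayed between -0.063 and 0.055.

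All 10 genes passed the filter on low counts and were among the 14135 genes tested. A gene was called when its p-value, adjusted over all genes tested, was below 0.05. In knockdown against control 6 of the 10 were called, 4 higher and 2 lower, against 30.1% of all genes called, 14.7% higher and 15.3% lower. With upper-quartile scaling, or with library totals alone, the split was 4 higher and 1 lower. Under PRGL493 7 of the 10 were called lower and 0 higher, against 41.8% of all genes called, 20.4% lower and 21.4% higher. Between knockdown and PRGL493 8 of the 10 were called, 6 higher and 2 lower in knockdown cells, against 50.4% of all genes called, 24.4% higher and 26.0% lower. With upper-quartile scaling that split was 6 and 1. The choice of genes was made with these calls known, so the shares of all genes are given for scale and the counts were not tested against them. Both treatments were compared with the same 3 control libraries.

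**Figure D1:**
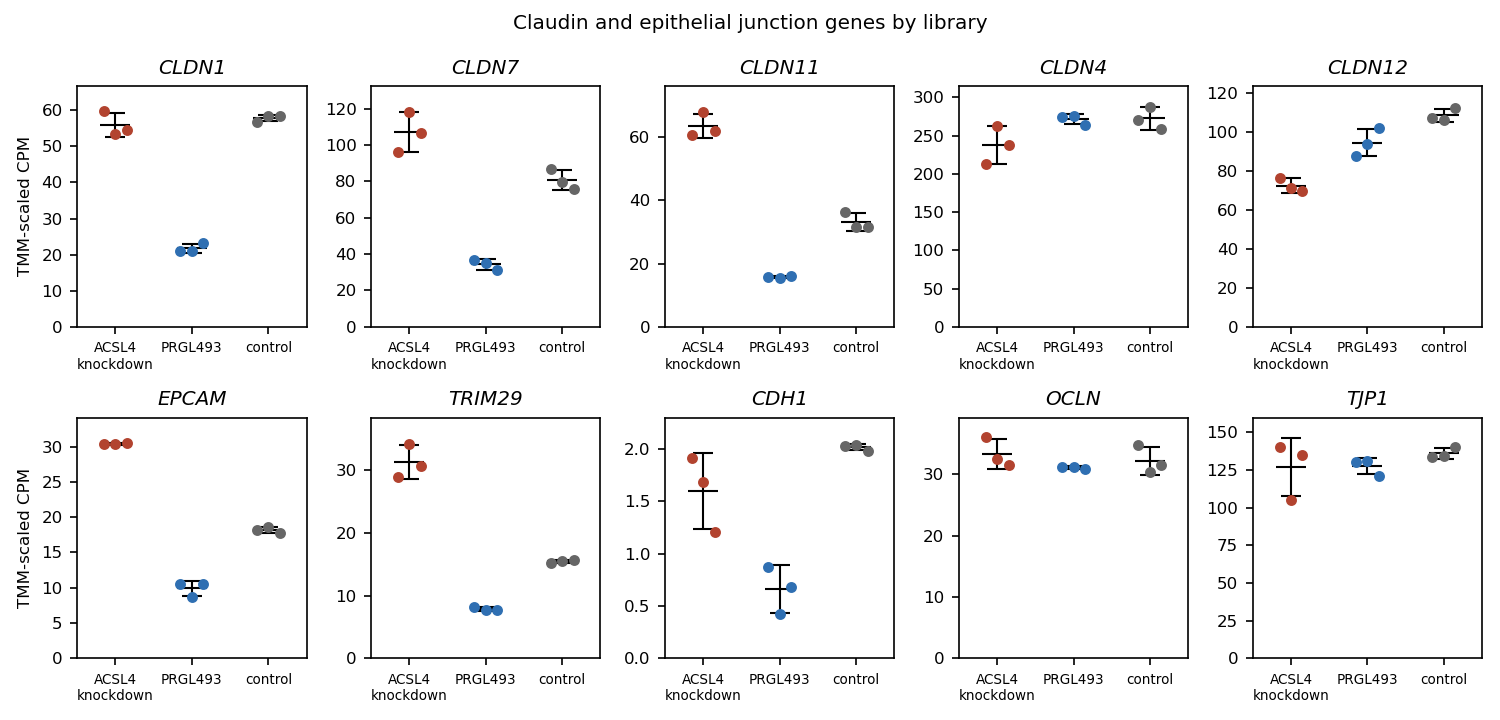
TMM-scaled CPM (y axis, from 0) of each gene in each library, with ACSL4 knockdown, PRGL493 and control cells side by side; points are libraries, bars are mean ± SD over 3 libraries. CLDN7, CLDN11, EPCAM and TRIM29 lie highest in knockdown cells and lowest with PRGL493, while CLDN4, OCLN and TJP1 stay close to control.

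Per kb of exon, which allows genes to be compared, CLDN4 was the most abundant of the 10 in control cells at 57.9 CPM per kb, followed by CLDN7 at 32.4. CLDN12 at 16.1 and CLDN1 at 15.8 CPM per kb came next and their libraries overlapped. TJP1 (12.1), CLDN11 (8.87), EPCAM (7.20), OCLN (4.76), TRIM29 (1.51) and CDH1 (0.327 CPM per kb) followed without overlap between neighbours. In knockdown cells the order began with CLDN4 (50.5), CLDN7 (43.0), CLDN11 (17.0), CLDN1 (15.3) and EPCAM (12.1 CPM per kb). There the libraries of CLDN4 overlapped those of CLDN7, those of CLDN11 overlapped CLDN1, and those of EPCAM overlapped TJP1. With PRGL493 CLDN4 (57.7 CPM per kb) was followed by CLDN12 (14.01) and CLDN7 (13.8), whose libraries overlapped, and CLDN1 (5.94), CLDN11 (4.23) and EPCAM (3.95) stood below TJP1 (11.3). The lengths join all annotated exons of a gene, so a gene with unused long isoforms is understated.

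CLDN1, CLDN7 and CLDN11 fell with PRGL493 to between 37.6% and 47.7% of control. In knockdown cells CLDN7 and CLDN11 rose, and CLDN1 did not pass the test. CLDN1, a core sealing claudin of epidermis and breast epithelium (ENSG00000163347, chromosome 3, 190305701 to 190322475, minus strand, GRCh38), had 59.8, 53.3 and 54.7 CPM in the knockdown libraries, 21.0, 21.1 and 23.2 CPM in the PRGL493 libraries, and 56.8, 58.4 and 58.3 CPM in the control libraries. The PRGL493 libraries lay far below all others, and knockdown and control libraries overlapped. With PRGL493 CLDN1 stood at 37.6% of control (log2 fold change -1.41, SE 0.07, adjusted p = 4.6e-11). In knockdown cells the log2 fold change was -0.05 (SE 0.06, adjusted p = 0.60), with a 95% interval of -0.18 to 0.08. Set directly against PRGL493, knockdown was higher by a log2 fold change of 1.36 (SE 0.06, adjusted p = 6.2e-11).

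CLDN7, the claudin that EPCAM binds (ENSG00000181885, chromosome 17, 7259903 to 7263983, minus strand), had 96.3, 118 and 107 CPM in the knockdown libraries. The PRGL493 libraries had 36.8, 35.2 and 31.2 CPM and the control libraries 86.6, 79.7 and 76.0 CPM. No pair of groups overlapped. CLDN7 rose 1.33-fold with knockdown, a log2 fold change of 0.41 (SE 0.08, adjusted p = 0.001). It fell to 42.6% of control with PRGL493, a log2 fold change of -1.23 (SE 0.08, adjusted p = 9.2e-09). Knockdown replicate 2 was the highest library, and CLDN7 has a short exon length of 2492 bp. Without that library the rise was 0.33 on the log2 scale and was still called. CLDN7 was 3.11-fold higher in knockdown than in PRGL493 cells (log2 fold change 1.64, SE 0.08, adjusted p = 2.6e-10). Its exons share 269 bp with another protein-coding annotation on the same strand and 38 bp with ELP5 on the other, and whether counting used strand is not known here.

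CLDN11 (ENSG00000013297, chromosome 3, 170418865 to 170454733, plus strand) is best known as the claudin of myelin and of the blood-testis barrier. It had 60.6, 67.9 and 61.9 CPM in the knockdown libraries, 15.8, 15.5 and 16.1 CPM in the PRGL493 libraries and 36.3, 31.6 and 31.5 CPM in the control libraries. The 3 groups were fully separate, with knockdown above control and PRGL493 below it. Relative to control it rose 1.92-fold with knockdown, a log2 fold change of 0.94 (SE 0.07, adjusted p = 2.3e-08). It fell to 47.7% with PRGL493, a log2 fold change of -1.07 (SE 0.07, adjusted p = 8.2e-09). Knockdown stood 4.02-fold above PRGL493 (log2 fold change 2.01, SE 0.07, adjusted p = 1.8e-12), the largest among the 10 genes. A protein-coding annotation on the same strand shares 683 bp of its exons.

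CLDN4 and CLDN12 did not share this pattern. CLDN4, a claudin of simple epithelia that binds the Clostridium perfringens enterotoxin (ENSG00000189143, chromosome 7, 73799542 to 73832693, plus strand), had 213, 263 and 237 CPM in the knockdown libraries, 274, 276 and 264 CPM in the PRGL493 libraries, and 271, 288 and 258 CPM in the control libraries. Its PRGL493 and control libraries interleaved, and knockdown overlapped control. The log2 fold change was -0.01 with PRGL493 (95% interval -0.14 to 0.13, adjusted p = 0.95). In knockdown cells it was -0.20 (SE 0.06, adjusted p = 0.031), a call that was lost without control replicate 1 (adjusted p = 0.077), without control replicate 2 (0.15), without knockdown replicate 1 (0.10) and without knockdown replicate 3 (0.083). Without knockdown replicate 1 the value was -0.12. The difference between knockdown and PRGL493 (-0.19, SE 0.06, adjusted p = 0.022) was lost without knockdown replicate 1 (-0.11, adjusted p = 0.11), knockdown replicate 3 (0.061), PRGL493 replicate 1 (0.074) or PRGL493 replicate 2 (0.090).

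CLDN12 (ENSG00000157224, chromosome 7, 90383721 to 90513402, plus strand) is an unusual claudin that lacks the C-terminal PDZ-binding motif by which most claudins bind ZO proteins. It had 76.5, 71.3 and 69.5 CPM in the knockdown libraries, 87.9, 93.6 and 102 CPM in the PRGL493 libraries and 107, 106 and 112 CPM in the control libraries. All groups were separate, with knockdown lowest. It fell in knockdown cells to 66.8% of control (log2 fold change -0.58, SE 0.06, adjusted p = 2.5e-06). Under PRGL493 the change was -0.20 (SE 0.06, adjusted p = 0.015), and this call was lost without control replicate 3 (-0.17, adjusted p = 0.072) or without PRGL493 replicate 1 (-0.16, adjusted p = 0.088). Knockdown lay below PRGL493 (log2 fold change -0.38, SE 0.06, adjusted p = 7.3e-05). CLDN12 exons overlap those of GTPBP10 (347 bp) and CDK14 (201 bp) on the same strand, so its counts are uncertain.

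The promoter windows of CLDN1, CLDN7 and CLDN11 are shown because these claudins fell with PRGL493, and that of TJP1, which was not called, for comparison and because it holds an E-box of the kind SNAIL binds. The table of promoters (RefSeq, GRCh38.p14) matched 7 of the 10 genes, and EPCAM, CDH1 and TRIM29 had no entry. Each line is the 250 bases before the first start listed by RefSeq, 5′ to 3′ on the gene's strand. These starts are not those of the GENCODE spans given with each gene: 29 bases of the CLDN1 window and 3 of the CLDN11 window lie in GENCODE exons, and the CLDN7 window lies within the gene span but outside its exons. Capitals mark 3 motifs searched on both strands: the E2-box CACCTG (or CAGGTG), the AP-1 site TGACTCA (or TGAGTCA) and the GC-box GGGCGG (or CCGCCC).
CLDN1 chr3:190322447-190322696, minus strand: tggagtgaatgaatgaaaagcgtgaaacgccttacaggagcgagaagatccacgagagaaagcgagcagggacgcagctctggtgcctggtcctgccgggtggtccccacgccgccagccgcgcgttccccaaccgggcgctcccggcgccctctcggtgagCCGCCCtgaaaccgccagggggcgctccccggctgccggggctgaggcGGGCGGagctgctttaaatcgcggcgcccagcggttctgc
CLDN7 chr17:7263214-7263463, minus strand: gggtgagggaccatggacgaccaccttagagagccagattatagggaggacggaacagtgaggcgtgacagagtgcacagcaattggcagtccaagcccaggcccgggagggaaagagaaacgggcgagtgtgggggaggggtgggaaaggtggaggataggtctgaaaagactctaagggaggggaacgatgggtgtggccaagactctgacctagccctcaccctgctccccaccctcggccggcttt
CLDN11 chr3:170418618-170418867, plus strand: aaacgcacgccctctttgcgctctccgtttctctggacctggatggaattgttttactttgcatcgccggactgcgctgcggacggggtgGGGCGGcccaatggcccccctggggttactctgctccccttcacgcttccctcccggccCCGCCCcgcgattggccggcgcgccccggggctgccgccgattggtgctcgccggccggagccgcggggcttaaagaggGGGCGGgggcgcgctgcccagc
TJP1 chr15:29969050-29969299, minus strand: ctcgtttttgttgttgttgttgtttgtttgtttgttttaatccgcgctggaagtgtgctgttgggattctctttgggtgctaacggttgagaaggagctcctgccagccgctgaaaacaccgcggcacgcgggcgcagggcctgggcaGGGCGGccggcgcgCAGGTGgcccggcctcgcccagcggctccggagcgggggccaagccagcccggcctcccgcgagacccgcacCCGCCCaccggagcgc

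The windows of CLDN1, CLDN7 and CLDN11 held no E2-box, and that of CLDN7 held none of the 3 motifs. CLDN1 carried a GC-box 88 and another 40 bases before the start, and CLDN11 carried GC-boxes at 160, 101 and 22 bases, counted from the first base of a match. TJP1 had an E2-box at 88 bases and GC-boxes at 102 and 16 bases. The windows of CLDN4, CLDN12 and OCLN are not printed, since GENCODE exons take up 250, 108 and 250 of their bases. CLDN4 had an AP-1 site 161 bases and a GC-box 47 bases before the start, OCLN had an E2-box at 33 and a GC-box at 55 bases, and CLDN12 held none of the 3 motifs. Among 27326 promoter windows of the same length, 17.5% held an E2-box, 4.15% an AP-1 site and 42.2% a GC-box. The GRHL motif AACCGGTT, searched in the same way, was in 0 of the 7 windows and in 0.102% of all. The motifs do not overlap one another in the printed windows, and a match describes letters, not binding.

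EPCAM (ENSG00000119888, chromosome 2, 47345158 to 47387601, plus strand) rose with knockdown and fell with PRGL493, as did CLDN7, its binding partner. It had 30.3, 30.3 and 30.5 CPM in the knockdown libraries, 10.5, 8.70 and 10.6 CPM in the PRGL493 libraries and 18.1, 18.6 and 17.7 CPM in the control libraries. The groups lay apart, and the knockdown libraries differed by less than 1 CPM. With PRGL493 EPCAM was at 54.8% of control (log2 fold change -0.86, SE 0.08, adjusted p = 3.3e-07), and with knockdown it was 1.68-fold higher than control (0.74, SE 0.07, adjusted p = 1e-06). Knockdown exceeded PRGL493 by 3.04-fold in the fit (log2 fold change 1.61, SE 0.08, adjusted p = 7.3e-11). EPCAM counts ran from 249 to 1330 per library.

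TRIM29 (ENSG00000137699, chromosome 11, 120111275 to 120185529, minus strand) had 28.8, 34.2 and 30.6 CPM in the knockdown libraries, 8.20, 7.73 and 7.62 CPM in the PRGL493 libraries and 15.2, 15.5 and 15.6 CPM in the control libraries. Knockdown libraries stood well above control and PRGL493 libraries well below it, with no overlap. TRIM29 rose 2.02-fold with knockdown, a log2 fold change of 1.02 (SE 0.08, adjusted p = 2.8e-08). It fell to 50.9% of control with PRGL493, at -0.97 (SE 0.08, adjusted p = 1.3e-07). Set against PRGL493, knockdown gave 1.99 (SE 0.08, adjusted p = 6.6e-12). TRIM29 has a long exon length (10218 bp), and in knockdown replicate 2, where long genes lay low, it was at its highest. Basal epithelial markers summed to between 1.58 and 2.05 CPM in knockdown, 0.589 and 1.05 CPM in PRGL493 and 3.05 and 3.08 CPM in control libraries. Of these 5 markers TP63 and KRT17 passed the filter, KRT6B was at 0 in every library, and KRT5 and KRT14 had at most 1 and 3 counts. None averaged above 0.944 CPM over the 9 libraries. KRT17 fell in both treatments. TP63 was not called in knockdown cells (0.21, SE 0.29) and was called lower with PRGL493 (-1.24, SE 0.34), where libraries overlapped control. The part of these markers in the TRIM29 result was not tested. In bulk RNA, fewer cells of a kind and less RNA per cell cannot be told apart.

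CDH1, or E-cadherin, the adhesive core of adherens junctions and the classical target of SNAIL (ENSG00000039068, chromosome 16, 68737225 to 68835548, plus strand), was the scarcest of the 10 genes. Its counts were 84, 64 and 47 in the knockdown libraries, 36, 12 and 22 in the PRGL493 libraries, and 62, 63 and 65 in the control libraries. As CPM these were 1.92, 1.69 and 1.21 with knockdown, 0.876, 0.420 and 0.681 with PRGL493 and 2.03, 2.04 and 1.99 in control. No knockdown or PRGL493 library reached the lowest control library. CDH1 fell with PRGL493 to 32.6% of control (log2 fold change -1.57, SE 0.26, adjusted p = 0.00012). In knockdown cells the log2 fold change was -0.33 (SE 0.23, adjusted p = 0.29), with a 95% interval of -0.81 to 0.15. SNAI1 RNA was lower than control in both treatments, at 20.4% of control in knockdown cells and 23.5% with PRGL493. CDH1 was called higher in neither. CDH1 was higher in knockdown than in PRGL493 cells (log2 fold change 1.24, SE 0.26, adjusted p = 0.00072). An antisense annotation shares 347 bp of its exons.

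The strand-associated OCLN and the scaffold TJP1 were not called in any of the 3 comparisons. OCLN (ENSG00000197822, chromosome 5, 69492292 to 69558104, plus strand) had 36.0, 32.4 and 31.4 CPM in the knockdown libraries, 31.2, 31.2 and 30.8 CPM in the PRGL493 libraries and 34.7, 30.4 and 31.4 CPM in the control libraries. Each treatment overlapped control. The log2 fold change was 0.05 in knockdown cells (95% interval -0.09 to 0.20, adjusted p = 0.62) and -0.05 with PRGL493 (-0.20 to 0.10, adjusted p = 0.60). Counts of OCLN were not whole in 4 of the 9 libraries, and part of the gene has a duplicated copy, so its level is uncertain. TJP1 (ENSG00000104067, chromosome 15, 29699367 to 29968865, minus strand) had 140, 105 and 135 CPM in the knockdown libraries, 130, 131 and 121 CPM in the PRGL493 libraries and 134, 134 and 140 CPM in the control libraries. Knockdown replicate 2 was the lowest library, and TJP1 has the longest exon length of the 10 genes, 11265 bp. In knockdown cells the log2 fold change was -0.10 (95% interval -0.29 to 0.08, adjusted p = 0.40), and 0.017 without that library. With PRGL493 it was -0.09 (95% interval -0.28 to 0.09, adjusted p = 0.40), and the gene was called (adjusted p = 0.046) when the 6 libraries of this comparison were fitted alone. These intervals leave room for modest changes, so a small change is not shown to be absent.

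**Figure D2:**
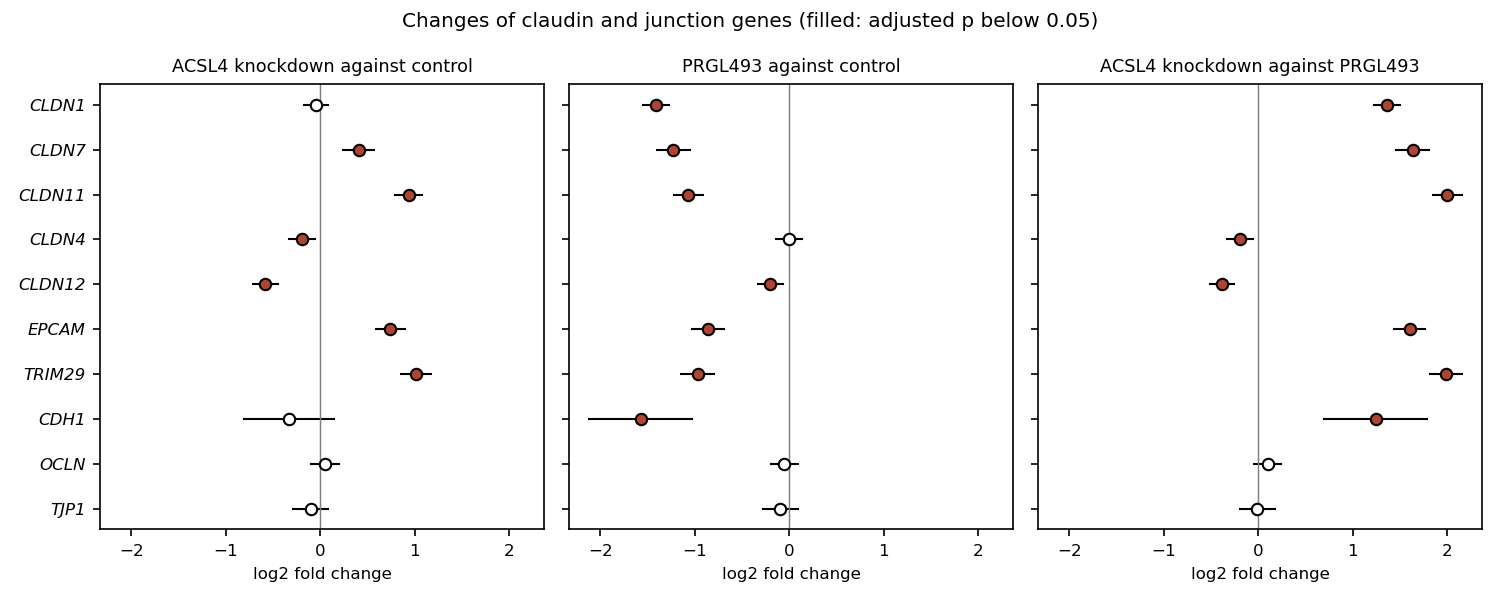
Log2 fold change (x axis) of each gene in the 3 comparisons, with 95% intervals from the fit; filled points passed an adjusted p of 0.05. Against PRGL493 the values of CLDN1, CLDN7, CLDN11, EPCAM, TRIM29 and CDH1 lie between 1.24 and 2.01, and those of CLDN4 and CLDN12 lie below 0.

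Libraries of the compared groups did not overlap for 6 of the 10 genes in knockdown against control, where 42.0% of all genes tested did not. With PRGL493 this held for 8 of the 10, all lower, against 57.2% of all genes, 27.2% in the lower direction. For knockdown set against PRGL493 it held for 9 of the 10, against 56.0% of all genes, 27.3% higher and 28.8% lower. The median log2 fold change of the 10 genes was 0.0020 in knockdown cells, -0.92 with PRGL493 and 1.30 between knockdown and PRGL493. Over all genes tested it was 0.00096 in knockdown cells, 0.0094 with PRGL493 and -0.0089 between knockdown and PRGL493. Within a treatment the 10 genes thus spread widely, from -0.58 for CLDN12 to 1.02 for TRIM29 in knockdown cells.

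The patterns of the claudins and EPCAM over the 9 libraries were compared with those of 11072 genes whose log2 CPM averaged 2 or more. Pearson's r is given as a description, since libraries of a group share their treatment. The nearest genes to EPCAM were ENPP4, CLDN11 and FAM167A (r = 0.991 for each). CLDN11 lay nearest to TRIM29 (0.995), PHGDH, the first enzyme of serine synthesis (0.994), and RAB38 (0.994). NARS, an aminoacyl-tRNA synthetase, was nearest to CLDN1 (0.998), ahead of HKDC1 (0.995) and LAMP3 (0.994). DKC1 (0.998) and the synthetases AARS (0.997) and YARS (0.996) were nearest to CLDN7. DHRS13 (0.985) and IL17RC (0.970) were among the 3 genes nearest to CLDN4. CLDN12 lay nearest to TMEM161B (0.992), SCAMP1 (0.992) and NBN (0.991).

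A list of the claudin family was then taken, whether or not a gene had changed. All 24 listed claudins had a row and 10 passed the filter, 5 of them outside the genes above. The other 14 had at most 14 counts in any library. CLDN2, a claudin that forms cation channels, had 9.15, 8.56 and 9.57 CPM in the knockdown libraries, 17.4, 18.1 and 16.6 CPM in the PRGL493 libraries and 14.4, 16.0 and 16.4 CPM in the control libraries. It fell in knockdown cells without overlap, by a log2 fold change of -0.78 (SE 0.08, adjusted p = 2.2e-06), and with PRGL493 the change was 0.15 (SE 0.08, adjusted p = 0.14). Counts of CLDN2 were not whole in 6 of the 9 libraries, so its level is uncertain. CLDN15, also a cation channel former, rose in knockdown cells (0.57, SE 0.17, adjusted p = 0.015). CLDN3, CLDN9 and CLDN23 were not called against control in either treatment, with log2 fold changes of 0.22, -0.61 and 0.16 in knockdown cells and -0.18, -0.11 and 0.14 with PRGL493. CLDN3 was higher in knockdown than in PRGL493 cells (0.40, SE 0.10, adjusted p = 0.0036). Of the 10 claudins tested 3 rose and 3 fell in knockdown cells, where 30.1% of all genes tested were called. With PRGL493 0 rose and 4 fell, against 41.8% of all genes called. The family's median log2 fold change was 0.057 in knockdown cells and -0.15 with PRGL493. Among the 5 outside the genes above, 1 rose and 1 fell in knockdown cells, and 0 rose and 0 fell with PRGL493. Their medians were 0.16 and 0.14. All falls with PRGL493 were thus among the genes chosen with these results known.

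Taken per kb of exon and summed, the 10 claudins reached 155 ± 10.7 CPM per kb in knockdown cells, 114 ± 1.52 with PRGL493 and 149 ± 4.13 in control cells (SD, n = 3 each). Knockdown and control overlapped, and PRGL493 lay below both. CLDN4 made up 32.6 ± 1.14% of that sum in knockdown cells, 50.4 ± 0.546% with PRGL493 and 38.8 ± 1.24% in control cells. The share of CLDN7 was 27.7 ± 0.954% in knockdown cells, 12.1 ± 0.893% with PRGL493 and 21.7 ± 1.12% in control cells. That of CLDN11 was 10.99 ± 0.233% in knockdown cells, 3.70 ± 0.114% with PRGL493 and 5.94 ± 0.444% in control cells. CLDN1 made up 9.92 ± 1.28% in knockdown cells, 5.20 ± 0.371% with PRGL493 and 10.6 ± 0.387% in control cells. CLDN4 thus carried about the same level in PRGL493 as in control cells but a larger share of a smaller pool. These shares rest on the genes above and were not tested.

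**Figure D3:**
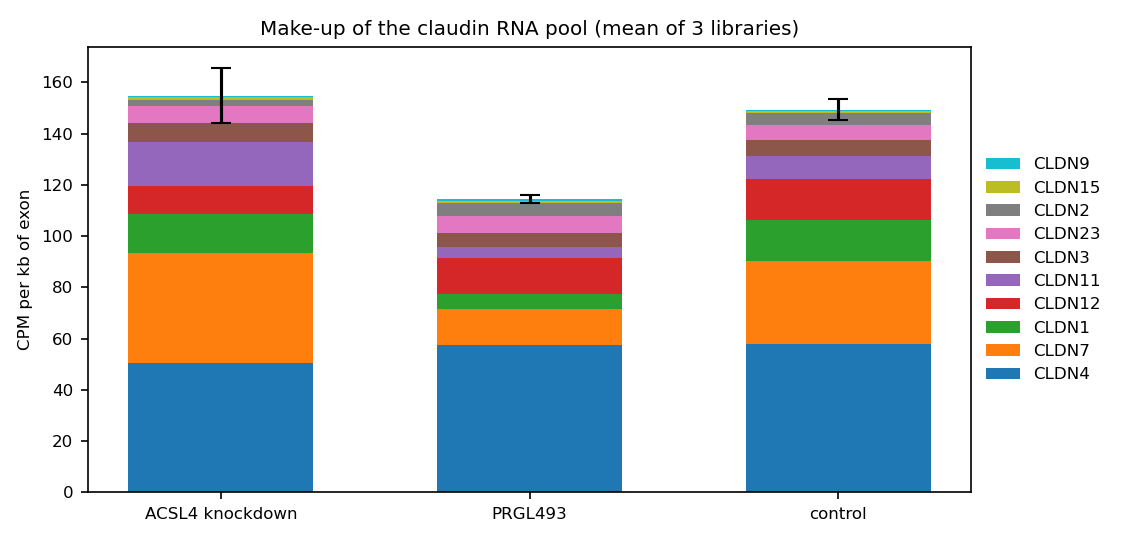
Mean CPM per kb of exon (y axis, from 0) of the 10 claudins that passed the filter, stacked for ACSL4 knockdown, PRGL493 and control cells; error bars are the SD of the sum over 3 libraries. The PRGL493 stack is lowest at 114, with thinner CLDN7, CLDN1 and CLDN11 layers and a CLDN4 layer of 57.7 against 57.9 in control.

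Around the claudins the other junction genes moved in both directions. The claudins and 9 further lists, of tight, adherens, desmosomal and gap junction genes, partners, regulators, keratins and mucins, held 110 tested genes outside the 10. Of these, 16 rose and 33 fell in knockdown cells, 23 rose and 35 fell with PRGL493, and between knockdown and PRGL493 33 were higher and 39 lower (41 and 32 with upper-quartile scaling). The backgrounds are the shares of all genes called given above. Over all genes, 48.4% of the calls between knockdown and PRGL493 were higher, against 58.4% with upper-quartile scaling. Other tight junction genes, with OCLN and TJP1 included, had 4 of 33 higher and 9 lower in knockdown cells (median log2 fold change -0.083), and 10 higher and 7 lower with PRGL493 (median -0.0081). In knockdown cells AMOTL2, an angiomotin-like scaffold (-0.85, SE 0.05), TJP3, which encodes ZO-3 (-0.74, SE 0.11), and ILDR2 (-0.41, SE 0.07) fell. AMOTL2 (-0.41, SE 0.05) and TJP3 (-0.29, SE 0.11) fell with PRGL493 as well. With PRGL493 cingulin, CGN, averaged 3.18 ± 0.319 CPM against 7.71 ± 0.733 CPM in control (log2 fold change -1.27, SE 0.12, adjusted p = 3.8e-07). CGN also fell in knockdown cells (-0.51, SE 0.11). The adhesion molecules ESAM (11.1 against 23.3 CPM, log2 fold change -1.08, SE 0.08) and F11R, or JAM-A (-0.50, SE 0.06), fell with PRGL493. Neither ESAM (0.07, SE 0.07) nor F11R (-0.08, SE 0.05) was called in knockdown cells.

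Adherens junction genes, CDH1 included, had 2 of 15 higher and 4 lower in knockdown cells, and 3 higher and 5 lower with PRGL493. The 14 without CDH1 had 2 higher and 4 lower in knockdown cells, and 3 higher and 4 lower with PRGL493. For these and the desmosome genes below, the shares of all genes called were 30.1% in knockdown cells and 41.8% with PRGL493. The nectin-like PVR rose by 0.28 with knockdown (SE 0.05) and was lower with PRGL493 (-0.34, SE 0.05). Vinculin, VCL (-0.28, SE 0.05), and p120-catenin, CTNND1 (-0.25, SE 0.05), fell in knockdown cells. PLEKHA7, a zonula adherens protein, rose with PRGL493 (0.88, SE 0.08) and with knockdown (0.30, SE 0.09), and with PRGL493 the actin binder LIMA1 fell (-0.39, SE 0.05). Desmosome genes had 0 of 9 higher and 4 lower in knockdown cells, and 1 higher and 4 lower with PRGL493. Periplakin, PPL, fell in both (-0.50, SE 0.07, with knockdown and -0.70, SE 0.07, with PRGL493), envoplakin, EVPL (-0.58, SE 0.09), and PERP (-0.30, SE 0.06) fell in knockdown cells, and DSG2 (-0.34, SE 0.05) and PKP3 (-0.33, SE 0.07) fell with PRGL493.

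A list of EPCAM with its relatives, partners and proteases, CLDN7 included, had 5 of 13 higher and 1 lower in knockdown cells, and 3 higher and 5 lower with PRGL493. Without EPCAM and CLDN7, the other 11 had 3 higher and 1 lower in knockdown cells, and 3 higher and 3 lower with PRGL493. Over all genes tested 30.1% were called in knockdown cells and 41.8% with PRGL493. Matriptase, ST14, a protease that can cleave EPCAM, rose with knockdown (0.46, SE 0.12) and was lower with PRGL493 (-0.67, SE 0.13), and its inhibitor SPINT1 rose by 0.29 (SE 0.07) with knockdown and was at -0.44 (SE 0.08) with PRGL493. The coactivator FHL2 rose in knockdown cells (0.34, SE 0.07). The protease BACE1 rose with PRGL493 (0.44, SE 0.05).

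Epithelial regulators had 5 of 11 higher and 3 lower in knockdown cells (median log2 fold change 0.21), and 1 higher and 7 lower with PRGL493 (-0.34). For this and the other lists of this paragraph, the shares of all genes called were 30.1% in knockdown cells and 41.8% with PRGL493. ELF3, an epithelial ETS factor (0.40, SE 0.08), and GATA3, the luminal factor (0.35, SE 0.08), rose and KLF5 fell (-0.29, SE 0.07) in knockdown cells. With PRGL493 GATA3 rose (0.37, SE 0.08) and KLF5 fell (-0.34, SE 0.07) as well. MAL2, an apical transport protein, fell with PRGL493 (-1.16, SE 0.11) and with knockdown (-0.32, SE 0.10). The protease PRSS8, called lower with PRGL493 (adjusted p = 4.1e-06) and higher with knockdown (adjusted p = 0.013), had 140, 122 and 95 counts in the knockdown libraries, 13, 9 and 18 with PRGL493 and 50, 59 and 63 in control. The splicing factor ESRP1 had 32, 33 and 29 counts in the knockdown libraries, 3, 0 and 3 with PRGL493 and 21, 30 and 26 in control, and was called lower with PRGL493 (adjusted p = 1.1e-05). Both genes are near the limit of detection there. Of 7 junction repressors tested 2 fell in knockdown cells, SNAI1 and SNAI2 (-0.92, SE 0.07), and 3 fell with PRGL493, SNAI1, SNAI2 (-0.63, SE 0.07) and the scarce KLF8 (-1.07, SE 0.39). ZEB1, a repressor of CDH1, was not called in either (0.10 in knockdown cells and -0.08 with PRGL493). Of 5 genes listed with TRIM29 as partners, itself included, 2 rose in knockdown cells (TRIM29 and USP28, 0.19, SE 0.05). With PRGL493 KAT5 (0.30, SE 0.06) and USP28 (0.24, SE 0.05) were among 4 that rose.

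**Figure D4:**
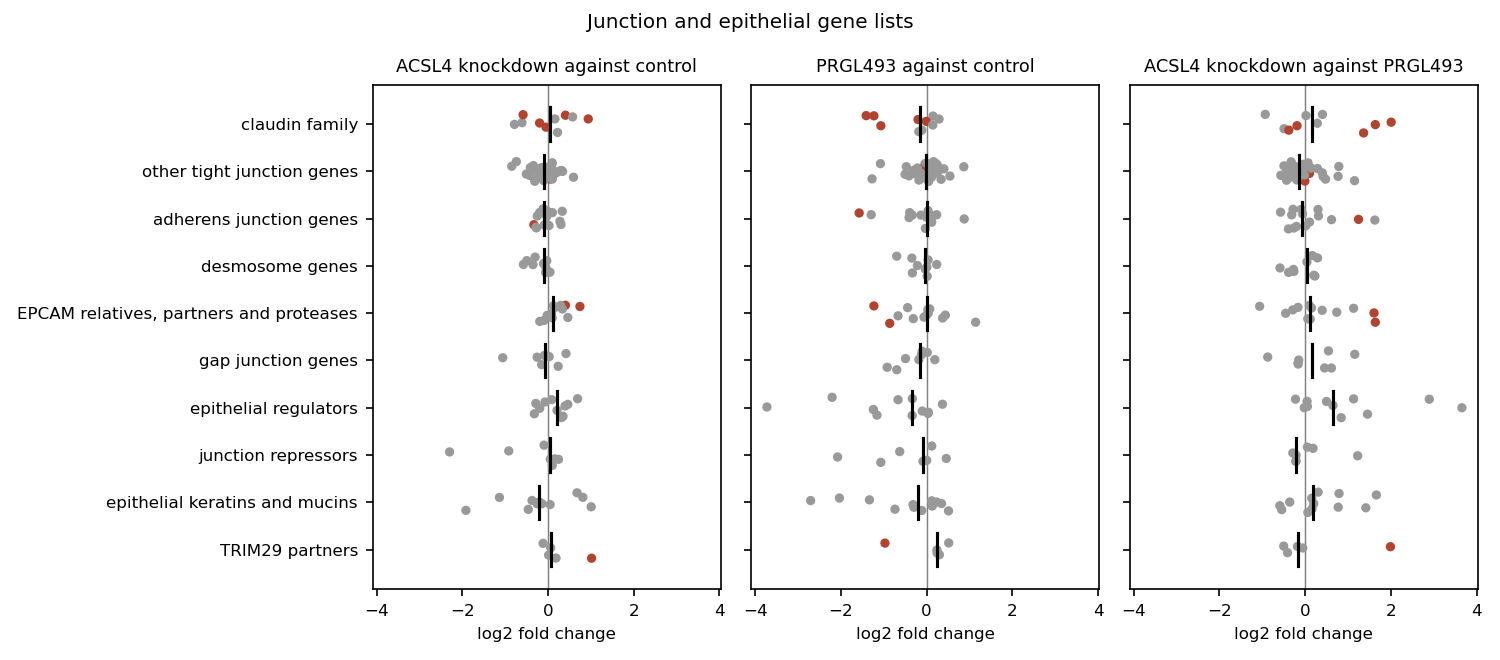
Log2 fold change (x axis) of every tested gene of 10 junction and epithelial lists in the 3 comparisons; red points are the 10 genes of the report, grey points the other genes, black bars the list medians. In PRGL493 against control the red points of CLDN1, CLDN7, CLDN11, EPCAM and TRIM29 lie at the ends of their lists, from -1.41 to -0.86. Those of CLDN4 and CLDN12, at -0.01 and -0.20, lie among the grey points of the claudin list.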

How the data were processed

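The members and gene lists were chosen with earlier results of these data known. The deposited table gives estimated counts per gene symbol for 9 libraries, not scaled for depth or length, and 10.5% of the values are not whole. The genome build was GRCh38, per the submitters' processing notes. Aligner, counter, annotation and strand setting were not given in the sources used here. RNA was extracted with Trizol, per the labels' protocols. In 28 rows a date stood in place of a symbol, and these stayed in totals and tests. Expected counts were rounded, filtered with filterByExpr (14135 genes left) and scaled by TMM, and a quasi-likelihood model with group as its term was fitted to all 9 libraries (edgeR 4.0.16 in R 4.3.3, robust, 6 residual degrees of freedom, biological coefficient of variation 6.38%). Benjamini-Hochberg adjustment covered the whole tested table, and every adjusted p comes from this test unless another is named. SEs and 95% intervals are those the model implies. The fit was tested on simulated data. The design had assumed whole counts, and its test was kept for the rounded values. Of the listed genes 7 were matched through older symbols (RefSeq synonyms). Coordinates, overlaps and joined exon lengths come from GENCODE 29 (GRCh38). The text names the 10 genes, ACSL4, SNAI1, up to 3 called genes per list and treatment with the smallest adjusted p, and the 3 genes most alike per claudin and EPCAM; CLDN2's levels and CLDN3, CLDN9, CLDN23, ZEB1 and the marker genes' changes were added after their values were seen. Alternatives covered scaling (RLE, upper quartile, library totals), the low-count filter, DESeq2 1.42.0, fits of the compared groups alone, a replicate block and leaving out each library. Counting error limits precision most for genes with few counts, such as CDH1, PRSS8, ESRP1, KLF8 and KRT17. Sequences come from RefSeq (GRCh38.p14). Some genes that the rule selects are not reported here.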

Additional observations from a re-analysis of the deposited data

How the results depend on the processing

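Each of the 30 log2 fold changes of the 10 genes was recomputed under 17 alternatives, giving 510 values, of which 482 kept their direction and their side of the threshold. Calls were lost 14 times, for CLDN4 in knockdown against control and against PRGL493 and for CLDN12 in PRGL493 against control, and gained once, for TJP1. In knockdown against control CLDN4 also lost its call with upper-quartile factors (adjusted p = 0.072), with library totals alone (0.056) and with the 2 groups fitted alone (0.058), and between knockdown and PRGL493 with upper-quartile factors (0.10). The 13 sign changes touched 5 values that were not called. CLDN4 in PRGL493 against control became 0.010 with library totals, 0.036 without control replicate 2 and 0.0057 without PRGL493 replicate 3. OCLN became -0.0088 in knockdown against control without knockdown replicate 1 and 0.0081 in PRGL493 against control without control replicate 1. TJP1 became 0.017 in knockdown against control without knockdown replicate 2. Between knockdown and PRGL493 TJP1 was 5.1e-05 with RLE, 0.047 with upper-quartile factors, 0.011 with library totals, 0.011 with at least 1 CPM in 3 libraries, 0.11 without knockdown replicate 2, 0.017 without PRGL493 replicate 1 and 0.019 without PRGL493 replicate 2. Leaving out each library gave -0.041 to 0.036 for CLDN4 and -0.089 to 0.0081 for OCLN in PRGL493 against control, -0.0088 to 0.11 for OCLN and -0.18 to 0.017 for TJP1 in knockdown against control, and -0.079 to 0.11 for TJP1 between knockdown and PRGL493. The cause was not tested. Called genes among the 10 numbered 5 to 6, 6 to 8 and 7 to 8 over these alternatives (knockdown and PRGL493 against control, then knockdown against PRGL493), and called junction list genes 34 to 56, 47 to 68 and 63 to 76. Calls over the whole tested table moved too, from 3074 to 4770, 4769 to 7214 and 5941 to 7303 in the same order. Between 12789 and 19520 genes were tested in these fits. Over all genes, 49.0% of knockdown calls were higher, against 58.7% with upper-quartile factors and 59.8% with library totals. Same-numbered control and knockdown libraries deviated together with r between 0.062 and 0.15. Differently numbered pairs of these groups lay lower, between -0.14 and 0.025. Same-numbered pairs with PRGL493 lay between -0.084 and -0.015, and there the differently numbered pairs lay higher, between -0.0054 and 0.078. Deviations were taken from group means, so a higher r in same-numbered pairs goes with a lower r in the others. The contrast is therefore not independent evidence of a shared batch. Whether same-numbered control and knockdown libraries share a batch is not known here, and the main fit did not take the numbers as pairs. With a replicate block 6, 7 and 8 of the 10 genes were called, and 46, 53 and 69 of the list genes. Of all 14135 genes tested, 3879, 5635 and 6857 were called with the block, against 4250, 5909 and 7130 without it. Depth limits CDH1, which had 12 to 84 counts.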

Other observations

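Gap junction and keratin genes were listed too. Of 8 gap junction genes tested 0 rose and 2 fell in knockdown cells, and 0 rose and 3 fell with PRGL493. Of all genes tested 30.1% were called in knockdown cells and 41.8% with PRGL493, and the gap junction list held no larger a share. GJA1, which encodes connexin 43, had 13.8, 13.1 and 13.9 CPM in the knockdown libraries, 25.2, 24.6 and 24.998 CPM in the PRGL493 libraries and 27.5, 28.6 and 28.8 CPM in the control libraries, and fell in both (log2 fold change -1.06, SE 0.06, with knockdown and -0.18, SE 0.06, with PRGL493). PANX1 fell in knockdown cells (-0.25, SE 0.06). GJB2, a connexin of stratified epithelia, fell with PRGL493 (-0.70, SE 0.08).

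Of 12 keratins and mucins tested 1 rose and 7 fell in knockdown cells, where 30.1% of all genes were called. With PRGL493 2 rose and 5 fell, against 41.8% of all genes called. MUC1, a membrane mucin of luminal cells, averaged 49.8 CPM in knockdown cells and 28.3 CPM in control cells (log2 fold change 0.81, SE 0.12). It averaged 40.4 CPM with PRGL493 and rose there too (0.51, SE 0.12). KRT17, a basal and stress keratin, fell in both treatments (-1.92, SE 0.24, with knockdown and -2.71, SE 0.27, with PRGL493), with means of 0.525 CPM in knockdown, 0.303 CPM in PRGL493 and 2.00 CPM in control cells. KRT80 fell in both (-0.25, SE 0.05, with knockdown and -0.32, SE 0.05, with PRGL493), and the hair keratin KRT81 averaged 10.7 CPM with PRGL493 and 44.0 CPM in control cells (-2.03, SE 0.11) and fell in knockdown cells as well (-0.37, SE 0.10). Keratin genes have close paralogs and pseudogenes with which reads may be shared.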
